A study of Mus musculus with 8 samples.

Results

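Plat, Plau, Plaur, Serpine2, F3, Tfpi and Procr, 7 genes of plasminogen activation and of the tissue factor start of clotting, were followed by symbol among 55450 gene identifiers counted in PyMT-1099 cells, a mouse line grown from a mammary tumour driven by the polyoma middle T antigen. The list was set by gene function, with earlier results of these data known. RNA was read in 8 libraries, 2 in each of 4 groups: Agps knockout (AGPS KO) cells kept for 10 days in TGF-β (2 ng/ml), Agps knockout cells left untreated, parental (WT) cells given the same TGF-β, and parental cells left untreated. Agps encodes the peroxisomal enzyme that makes the ether bond of ether lipids, and TGF-β drives these cells from an epithelial toward a mesenchymal state. The library names give all 4 knockout libraries the same line, so what sets this line apart from the parental one other than Agps cannot be told apart from the knockout. The labels do not state whether replicate libraries stem from separate cultures. P-values therefore measure only how far these libraries spread, and that spread may be technical.

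Plasminogen is cut to plasmin, a protease of fibrin and matrix, by a pair of activators: urokinase (Plau), which works on the cell surface bound to its receptor (Plaur), and tissue plasminogen activator (Plat), which works best on fibrin. Serpine2 encodes protease nexin, a secreted inhibitor of both activators and of thrombin. Tissue factor (F3) is the membrane receptor that starts clotting by binding factor VII, Tfpi encodes the inhibitor of that complex, and Procr encodes the endothelial receptor for protein C, which limits clotting. In tumours, urokinase, its receptor and tissue factor are best known for roles in invasion and in the clotting that accompanies cancer.

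Library totals lay between 17007268 and 21311831 counts. Levels are CPM, counts scaled to one common library size after TMM, and a change is a log2 fold change from an edgeR quasi-likelihood fit over all 8 libraries, called where its Benjamini-Hochberg adjusted p, over 14641 genes tested, was under 0.05. Agps stood at 43.9 and 35.6 CPM in knockout cells with TGF-β and at 32.9 and 29.3 CPM in untreated knockout cells, against 265 and 266 CPM in treated and 357 and 330 CPM in untreated parental cells. All 4 knockout libraries were below all 4 parental ones. Of 5 epithelial markers, Cdh1, Krt7, Krt8 and Krt18 were counted in every group, while Epcam had 0 counts in all 8 libraries. The 5 markers summed to 3176 to 3381 CPM in treated and 3165 to 3318 CPM in untreated knockout cells, and to 3032 to 3208 CPM in treated and 4299.6 to 4690.5 CPM in untreated parental cells. The sum is mostly Krt18 and Krt8. Cdh1 (E-cadherin) averaged 52.3 CPM in treated and 302 CPM in untreated knockout cells, and 134 CPM in treated and 642 CPM in untreated parental cells, and was called lower with TGF-β in both lines. Krt7 was called higher with TGF-β in both. In such bulk RNA, fewer cells of a kind and less RNA per cell cannot be told apart.

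The sequences just upstream of 4 of the genes are shown because 3 of them, Plaur, F3 and Procr, carry the AP-1 motif, a binding sequence of Fos and Jun proteins, while Tfpi does not. They are RefSeq promoter windows on GRCm38.p6, written 5′ to 3′ on the gene's strand and ended before the first annotated transcript base. Capitals mark matches to the AP-1 motif TGANTCA on either strand.
Plaur (chr7:24462233-24462482, plus strand): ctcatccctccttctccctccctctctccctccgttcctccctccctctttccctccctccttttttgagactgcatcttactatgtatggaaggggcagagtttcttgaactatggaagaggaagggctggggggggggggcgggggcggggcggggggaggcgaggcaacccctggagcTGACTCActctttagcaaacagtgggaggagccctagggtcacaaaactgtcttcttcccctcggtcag
F3 (chr3:121723287-121723536, plus strand): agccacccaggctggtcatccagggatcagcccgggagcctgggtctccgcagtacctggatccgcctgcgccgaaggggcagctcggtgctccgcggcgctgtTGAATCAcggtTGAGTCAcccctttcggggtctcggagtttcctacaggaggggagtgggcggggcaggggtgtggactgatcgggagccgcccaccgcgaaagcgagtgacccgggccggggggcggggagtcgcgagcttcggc
Procr (chr2:155750967-155751116, plus strand): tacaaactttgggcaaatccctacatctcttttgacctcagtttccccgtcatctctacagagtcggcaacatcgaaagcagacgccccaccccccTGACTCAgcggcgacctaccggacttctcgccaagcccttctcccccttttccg
Tfpi (chr2:84476776-84477009, minus strand): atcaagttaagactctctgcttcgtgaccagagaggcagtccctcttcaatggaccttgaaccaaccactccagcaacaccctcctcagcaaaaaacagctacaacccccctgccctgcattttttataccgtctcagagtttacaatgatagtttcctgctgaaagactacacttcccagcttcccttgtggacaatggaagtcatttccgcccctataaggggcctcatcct

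Each of 32851 promoter windows of 250 bases before a RefSeq start was searched in the same way, and 6.75% held the AP-1 motif. F3 held 2 matches, the farther one beginning 146 bases before its RefSeq start, Plaur 1 match at 69 bases and Procr 1 match at 154 bases. The Tfpi window shown, a second Tfpi window and the Serpine2 window held 0 matches, and no window of Plau or Plat was used here. The palindrome of SMAD proteins (GTCTAGAC, in 0.167% of windows), the TEAD motif (GGAATG, 12.6%) and the CRE motif (TGACGTCA, 1.55%) had 0 matches in all 6 windows of these genes. The GC box (GGGCGG, 32.7%) matched 3 times each in the Plaur and F3 windows, 6 times in that of Serpine2, once in each Tfpi window and 0 times in that of Procr. The E-box of ZEB and SNAI factors (CACCTG, 17.2%) and the TATA box (TATAAA, 12.4%) each matched in a single window, the E-box in the second Tfpi window and the TATA box in the first. A match is a run of letters and not a measured site, and no match says only that the letters are not in that window.

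Of the 7 genes 5 passed the count filter. Procr passed only through the treated parental libraries, where it is high, so its own calls are not used, and Plau and Serpine2 were not tested. The counts here are of Plat, Plaur, F3 and Tfpi. With TGF-β in knockout cells all 4 were called higher, where 41.4% of all genes tested were called, 20.9% higher and 20.6% lower. Libraries of these groups did not overlap for the 4, nor for 68.8% of all genes tested. With TGF-β in parental cells 3 were called, 2 higher and 1 lower, where 42.5% of all genes were called, 21.3% higher and 21.2% lower, and 3 did not overlap, against 72.1% of all genes. Between knockout and parental cells without treatment 4 were called, all lower, where 13.7% of all genes were called, 4.72% higher and 8.94% lower, and 4 did not overlap, against 50.7% of all genes. Under TGF-β 2 were called between the lines, both lower, where 17.9% of all genes were called, 6.82% higher and 11.1% lower, and 3 did not overlap, against 61.3% of all genes. For 2 genes the TGF-β log2 fold change was called higher in knockout than in parental cells, where 2.4% of all genes were called, 1.25% higher and 1.15% lower. These comparisons share libraries, so their calls are not independent of each other.

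**Figure D1:**
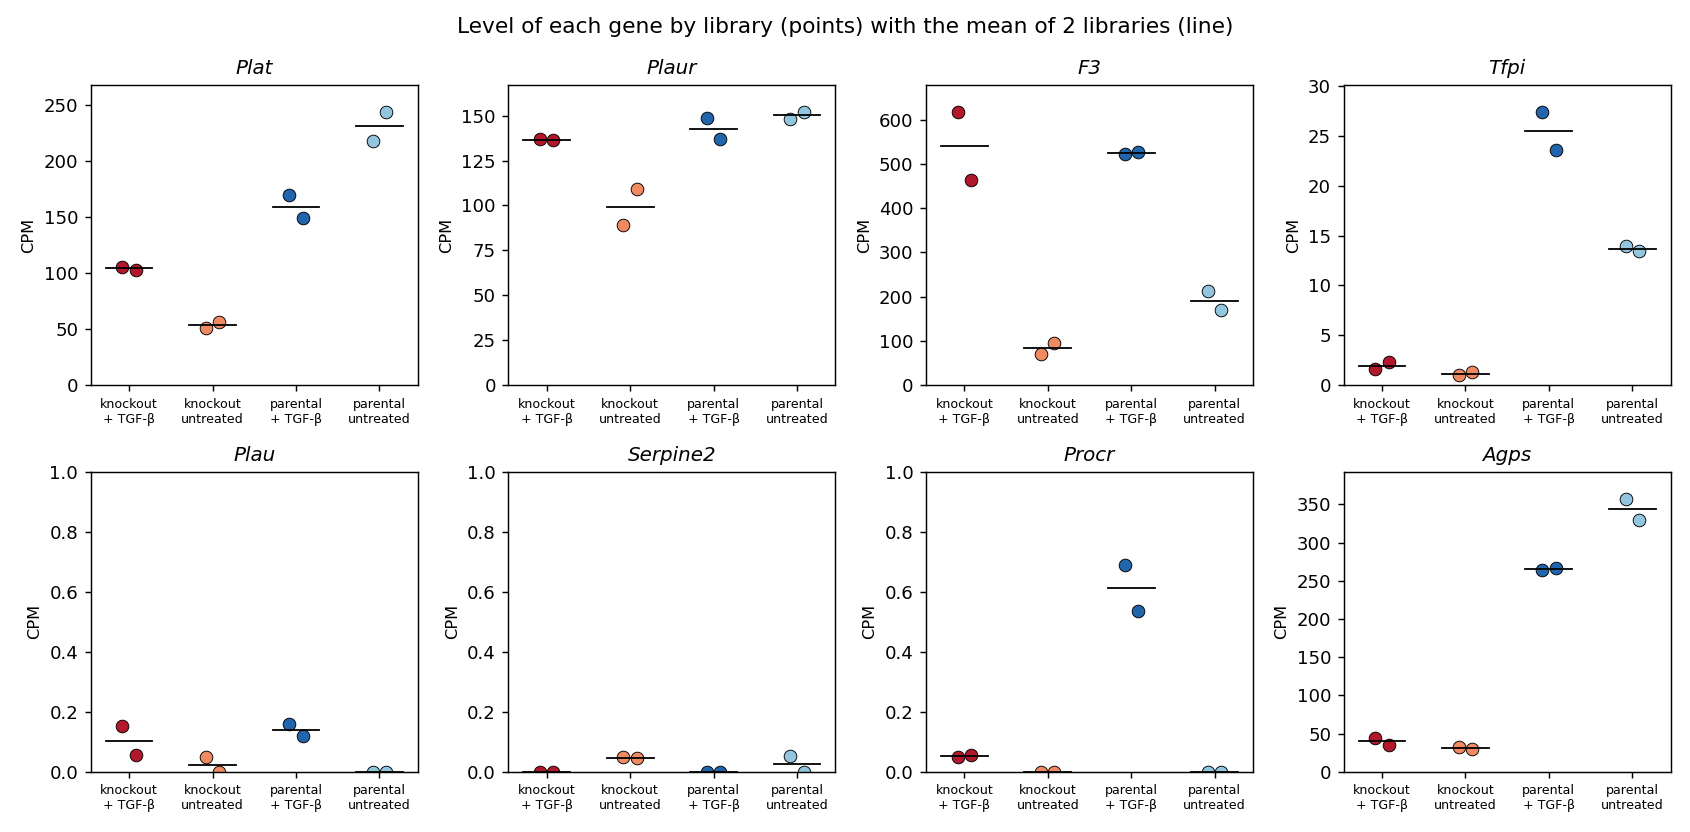
Level in CPM (y axis, from 0) of the 7 genes and of Agps in each library (points) by group, with the mean of the 2 libraries as a line. Plat, Plaur, F3 and Tfpi had counts in every library, while Plau, Serpine2 and Procr stayed below 1 CPM in all 8.

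Of the plasminogen activators, Plat was by far the more abundant transcript, and TGF-β moved it in opposite directions in the lines. Plat (chromosome 8, GRCm38, 22757727 to 22782844) stood at 105 and 103 CPM in knockout cells with TGF-β, at 50.8 and 56.2 CPM in untreated knockout cells, at 169 and 149 CPM in parental cells with TGF-β and at 219 and 244 CPM in untreated parental cells. The groups did not overlap, and both parental groups lay above both knockout groups. With TGF-β Plat rose in knockout cells, to 1.95 times the untreated level (log2 fold change 0.96, standard error 0.10, adjusted p = 1.25e-05 in edgeR's quasi-likelihood test). Parental cells went the other way, 1.45-fold lower with TGF-β (log2 fold change -0.54, standard error 0.10, adjusted p = 9.36e-04). The difference between these changes, knockout minus parental, was 1.50 in log2 units, and its adjusted p was 4.64e-04 (standard error 0.14).

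Untreated knockout cells held 4.32-fold less Plat than untreated parental cells (log2 fold change -2.11, standard error 0.10, adjusted p = 6.21e-07). Under TGF-β the gap was 1.53-fold (log2 fold change -0.61, standard error 0.10, adjusted p = 0.00149). Genes of chromosome 8 as a whole were lower in the knockout line, with a median log2 fold change over the 809 other tested genes of -0.46 without treatment and -0.47 with TGF-β. Relative to that median Plat stood at -1.65 in log2 units without treatment, where 13 of the 809 genes were lower still. Under TGF-β it stood at -0.14 from the median, and 305 of the 809 genes were lower than Plat. Within 5 Mb of Plat the median of 67 tested genes was -0.29 without treatment and -0.23 with TGF-β. The part of the chromosome-wide difference in the level of Plat was not tested.

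Plau (chromosome 14, 20836660 to 20843385), the urokinase gene, was close to absent from the counts. Knockout cells had 3 and 1 counts with TGF-β and 1 and 0 untreated, and parental cells had 3 and 2 with TGF-β and 0 and 0 untreated. The treated groups overlapped each other, as did the untreated groups, and none held more than 5 counts. Both treated parental libraries held more counts than either untreated parental one. The knockout groups met at 1 count (0.0554 CPM treated, 0.0483 CPM untreated). An exact Poisson interval, which covers counting error only, allowed at most 0.271 CPM in treated and 0.132 CPM in untreated knockout cells, and 0.327 CPM in treated and 0.102 CPM in untreated parental cells. No exon of Plau lies under another annotated gene, and 0 of its 50-base stretches recur in another gene's transcripts.

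Its receptor gene, in contrast, was well expressed. Plaur (chromosome 7, 24462484 to 24475968) stood at 137 and 137 CPM in knockout cells with TGF-β, at 89.3 and 109 CPM in untreated knockout cells, at 149 and 137 CPM in parental cells with TGF-β and at 148 and 152 CPM in untreated parental cells. Untreated knockout cells were the low group, and the parental groups overlapped each other. Plaur was 1.51-fold lower in untreated knockout than in untreated parental cells (log2 fold change -0.60, standard error 0.10, adjusted p = 0.00248 in edgeR). With TGF-β it rose 1.38-fold in knockout cells (log2 fold change 0.46, standard error 0.10, adjusted p = 0.00336). No change passed in parental cells, where the log2 fold change was -0.07 with a 95% interval from -0.30 to 0.15. Under TGF-β the lines differed by -0.06, with a 95% interval from -0.28 to 0.16. The difference between the TGF-β changes was 0.54 on the log2 scale and missed the threshold (adjusted p = 0.0881). It also stayed uncalled in 11 of 15 other fits. Among the fits where it passed were DESeq2's Wald test (adjusted p = 0.0385) and the edgeR fit without the count filter (adjusted p = 0.0109). On leaving out 1 library the difference ranged from 0.40 to 0.69.

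Serpine2 (chromosome 1, 79794197 to 79861180), the inhibitor of both activators, had 0 counts in all 4 libraries with TGF-β. Untreated, it had 1 and 1 counts in knockout cells, against 1 and 0 counts in parental cells. All 4 groups lay at or under 3 counts, the number with which a count of 0 is compatible, which equals 0.0793 CPM in treated knockout cells and 0.0841 CPM in treated parental cells. No fold is given.

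F3, the tissue factor gene, was the most abundant of the 7 per length of transcript under TGF-β in both lines. F3 (chromosome 3, 121723537 to 121735048) stood at 617 and 462 CPM in knockout cells with TGF-β, at 70.6 and 95 CPM in untreated knockout cells, at 522 and 526 CPM in parental cells with TGF-β and at 212 and 170 CPM in untreated parental cells. Every treated library lay above every untreated one, the treated groups overlapped each other, and the untreated knockout libraries were the lowest. With TGF-β F3 rose 6.52-fold in knockout cells (log2 fold change 2.704, standard error 0.17, adjusted p = 1.95e-07 in edgeR) and 2.74-fold in parental cells (log2 fold change 1.46, standard error 0.16, adjusted p = 2.36e-05). The rise was larger in knockout cells by 1.25 in log2 units, with an adjusted p of 0.0173 (standard error 0.23). That difference missed the threshold without replicate 1 or replicate 2 of the treated parental cells (adjusted p = 0.0886 and 0.0765) and without replicate 1 of the treated knockout cells (adjusted p = 0.0860), with log2 differences of 1.24, 1.25 and 1.03.

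The lines differed in F3 without TGF-β and not detectably with it. Untreated knockout cells held 2.31-fold less F3 than untreated parental cells (log2 fold change -1.21, standard error 0.16, adjusted p = 6.13e-04). Under TGF-β the log2 fold change was 0.04, with a 95% interval from -0.31 to 0.39, and its sign turned without replicate 1 of the treated knockout cells (-0.18). Chromosome 3 was another chromosome with lower levels in the knockout line, and its 763 other tested genes had a median log2 fold change of -0.27 without treatment and -0.30 with TGF-β. F3 lay at -0.93 from that median in log2 units without treatment, with 49 of the 763 genes lower still, and 0.34 above it with TGF-β, with 641 genes lower. The part of this chromosome-wide difference was not tested.

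**Figure D2:**
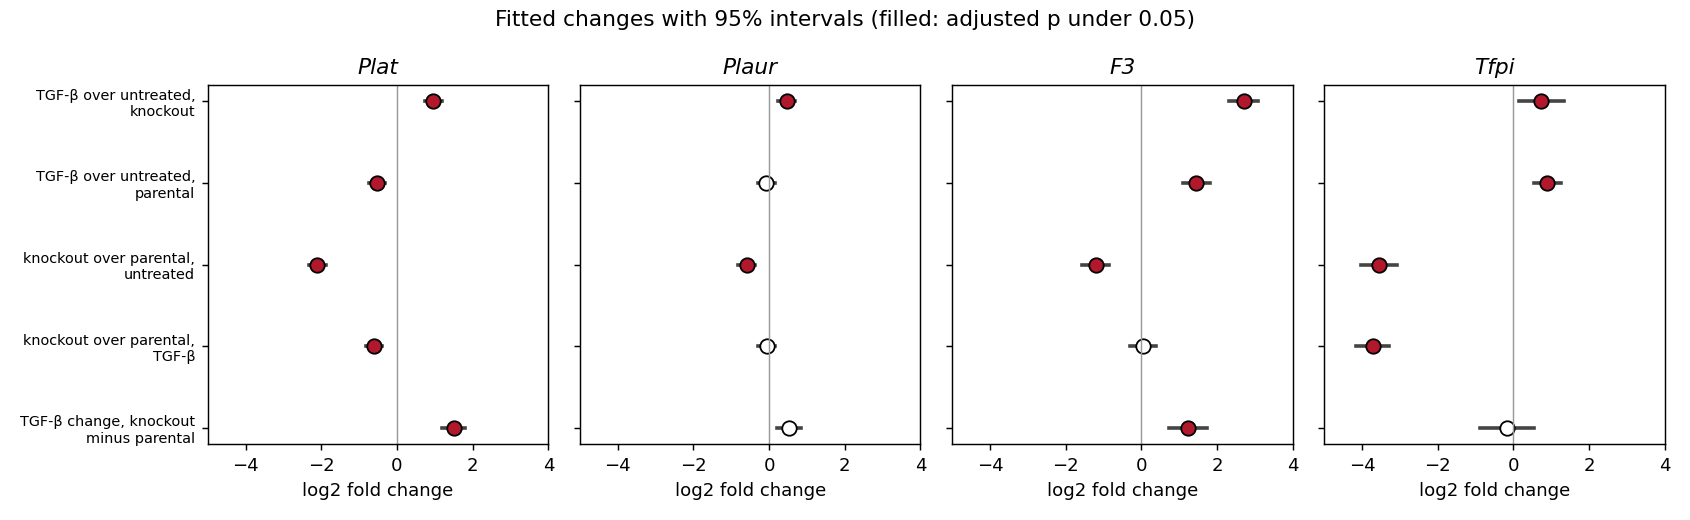
Fitted log2 fold changes (x axis) of Plat, Plaur, F3 and Tfpi in 5 comparisons, with 95% intervals as lines and filled points where the adjusted p was under 0.05. Plat lies right of 0 for TGF-β in knockout cells and left of 0 in parental cells, and Tfpi lies at -3.72 with TGF-β and -3.55 without for knockout over parental cells.

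Tfpi, the inhibitor of the tissue factor complex, was far lower in the knockout line than in the parental line. Tfpi (chromosome 2, 84432855 to 84476775) stood at 1.62 and 2.27 CPM in knockout cells with TGF-β, at 0.966 and 1.35 CPM in untreated knockout cells, at 27.4 and 23.6 CPM in parental cells with TGF-β and at 13.9 and 13.4 CPM in untreated parental cells. The knockout libraries, with 20 to 41 counts each, were all below the parental ones, which had 229 to 517 counts each. Tfpi was 11.7-fold lower in untreated knockout than in untreated parental cells (log2 fold change -3.55, standard error 0.22, adjusted p = 2.63e-06 in edgeR) and 13.1-fold lower under TGF-β (log2 fold change -3.72, standard error 0.20, adjusted p = 8.52e-07). In parental cells Tfpi rose 1.87-fold with TGF-β (log2 fold change 0.90, standard error 0.16, adjusted p = 7.97e-04). In knockout cells its log2 fold change of 0.74 (standard error 0.27) passed narrowly (adjusted p = 0.0489), and the call was lost in 10 of 16 other fits, up to an adjusted p of 0.263 without replicate 2 of the treated knockout cells. The TGF-β changes of Tfpi differed by -0.16 between the lines, with a 95% interval from -0.87 to 0.55.

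Tfpi lies on the chromosome of Agps, 8.64 Mb from it. Most of its neighbours did not differ detectably between the lines. Chromosome 2 as a whole did not shift, with a median log2 fold change over 1105 other tested genes of 0.03 without treatment and 0.05 with TGF-β, and 3 of these genes were lower than Tfpi without treatment and 2 with TGF-β. Within 1 Mb of Tfpi 16 other genes were tested, with a median of 0.12 without treatment and 0.08 with TGF-β. Of these, 2 were called higher and 1 lower without treatment, and 2 were called higher and 0 lower with TGF-β. The nearest tested genes on either side were Fam171b, 0.66 Mb on one side, which was higher in the knockout line (log2 fold change 3.86 untreated and 1.66 with TGF-β), and Ctnnd1, which encodes p120 catenin and lies 0.17 Mb on the other side, at -0.09 untreated (adjusted p = 0.629 in edgeR) and -0.26 with TGF-β (adjusted p = 0.0719). Fam171b and Ctnnd1 were singled out after the values were seen.

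**Figure D3:**
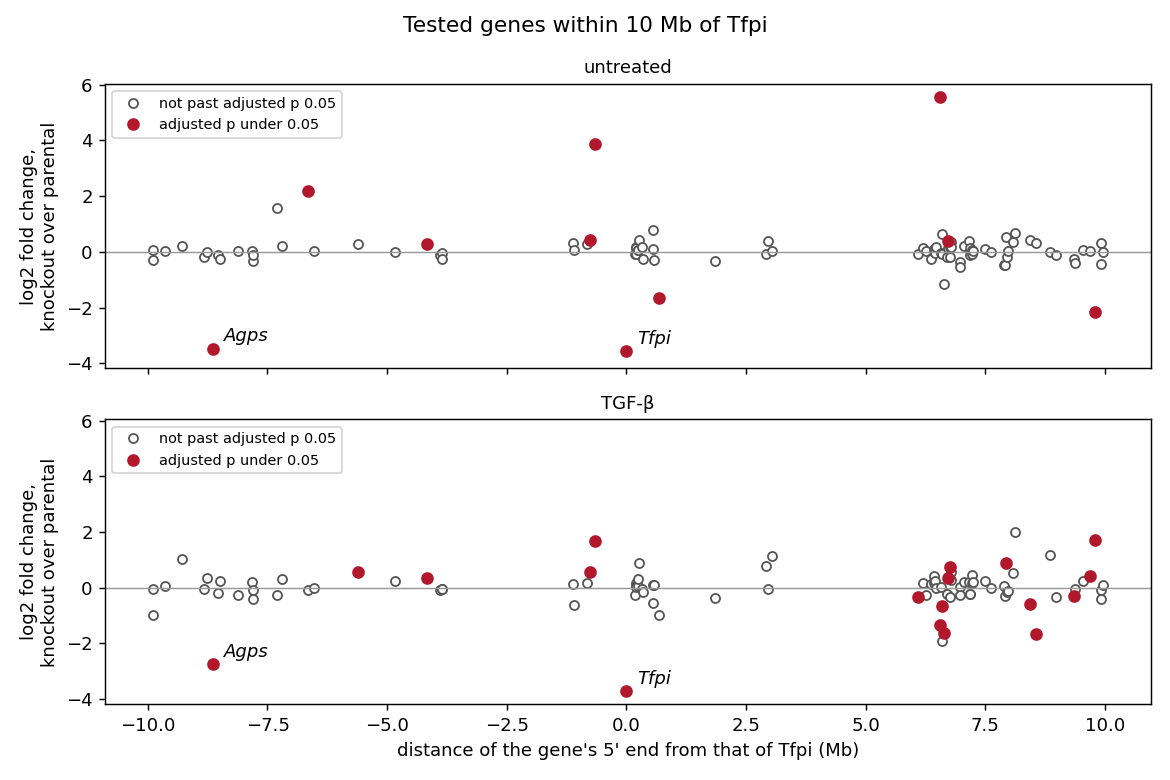
Log2 fold change of knockout over parental cells (y axis) for the tested genes within 10 Mb of Tfpi, by the distance of their 5′ ends from that of Tfpi in Mb (x axis), untreated above and with TGF-β below, filled where the adjusted p was under 0.05. Tfpi at 0 and Agps at the left lie between -3.72 and -2.74, while the median of the 95 genes around Tfpi, Agps included, is 0.03 untreated and 0.04 with TGF-β.

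**Figure D4:**
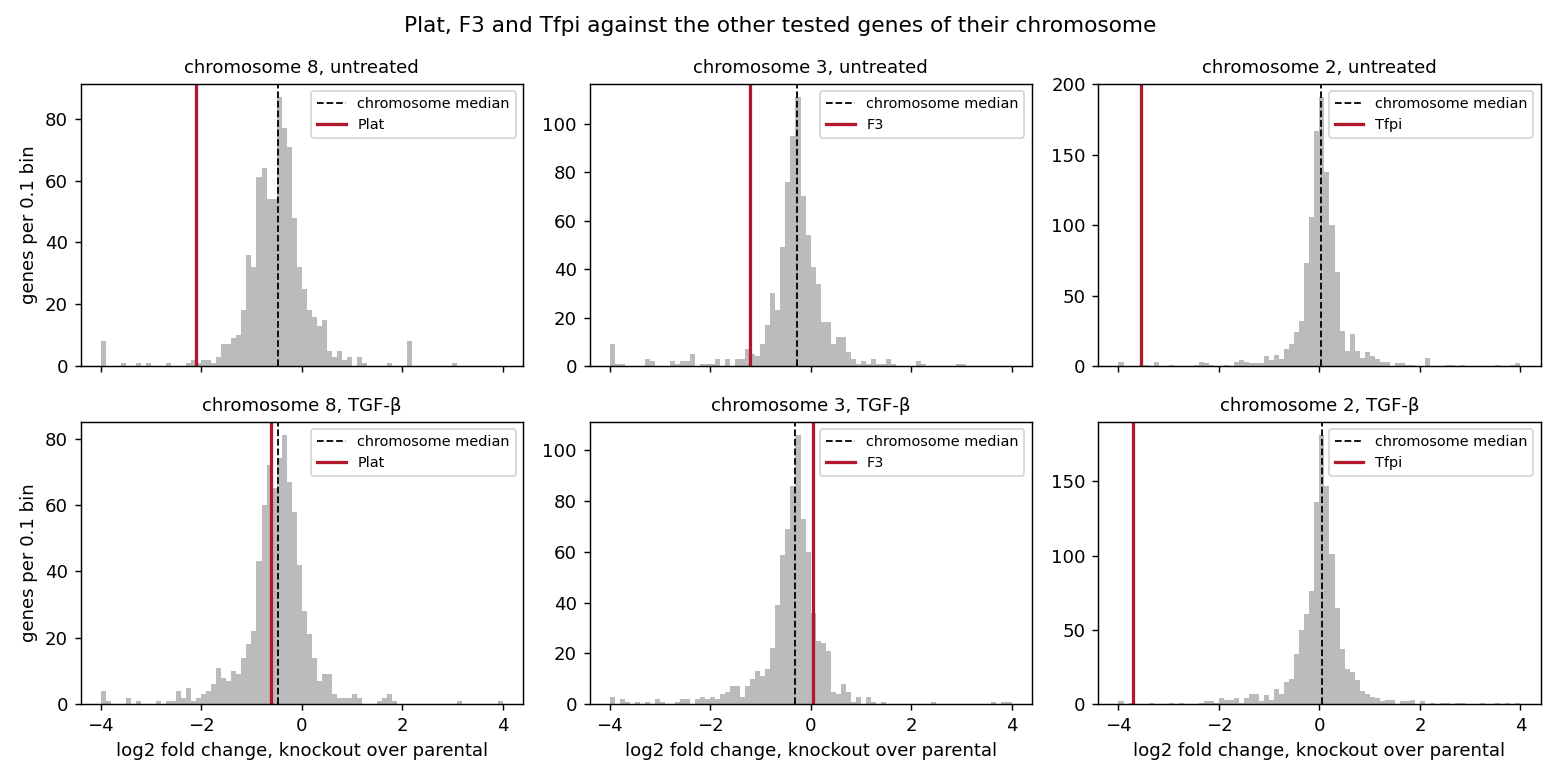
Number of tested genes per 0.1 of log2 fold change of knockout over parental cells (x axis, values beyond -4 and 4 drawn in the end bins) on chromosomes 8, 3 and 2, untreated above and with TGF-β below. The red line marks Plat, F3 or Tfpi and the dashed line the chromosome's median, -0.46 and -0.47 on chromosome 8.

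Procr, the protein C receptor gene, was detected above 3 counts only in treated parental cells. Procr (chromosome 2, 155751117 to 155755471) had 1 and 1 counts in treated and 0 and 0 in untreated knockout cells, and 13 and 9 in treated and 0 and 0 in untreated parental cells. The treated parental libraries stood apart from the other 6. At 0.617 CPM over the group, treated parental cells held 7.41-fold more Procr than untreated ones would with 3 counts in place of 0. Exact Poisson 95% intervals, for counting error only, were 0.387 to 0.934 CPM in treated parental cells and up to 0.102 CPM in untreated ones. Under TGF-β the knockout level was 0.0857 times the parental one, with an exact binomial 95% interval from 0.00977 to 0.349 that covers counting error only. No test of Procr is given, since it entered the fit only through the group where it is high.

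Procr is known from endothelial cells, and the 6 endothelial markers did not move together. Cdh5 (VE-cadherin) stood at 7.23 and 6.15 CPM in knockout cells with TGF-β, at 0.241 and 0 CPM in untreated knockout cells, at 75.6 and 75.6 CPM in parental cells with TGF-β and at 0.843 and 0.761 CPM in untreated parental cells. Summed over the 6, the levels were 6.71 to 8.24 CPM in treated and 0.603 to 0.821 CPM in untreated knockout cells, and 76.5 CPM in both treated and 1.29 to 1.58 CPM in untreated parental libraries. Pecam1 was not called in any comparison, at 0.594 CPM in treated and 0.498 CPM in untreated knockout cells and 0.848 CPM in treated and 0.633 CPM in untreated parental cells. Kdr had 7 counts in treated knockout cells, 3 in treated parental cells and 0 untreated. Emcn was at 0 counts in all groups, and Tek and Tie1 had at most 2 in a group. Of 6 macrophage and leukocyte markers, Adgre1 was at 0 in all groups and Ptprc had at most 5 counts in a group, and their sum was 17.5 to 18.9 CPM in treated and 32.5 to 33.2 CPM in untreated knockout cells, and 28.3 to 30.9 CPM in treated and 32.4 to 32.7 CPM in untreated parental cells. That sum is mostly Csf1r in all groups but treated knockout cells. Cd68 was called higher with TGF-β in both lines, averaging 10.8 CPM in treated and 2.33 CPM in untreated knockout cells, and 6.69 CPM in treated and 1.47 CPM in untreated parental cells. Csf1r was called lower in both. Of 5 platelet markers Gp1ba was at 0 in all groups, and the sum, mostly Ppbp except in treated knockout cells, was 1.44 to 1.97 CPM in treated and 3.94 to 4.83 CPM in untreated knockout cells, against 52.3 to 58.9 CPM in treated and 14.2 to 17.1 CPM in untreated parental cells. Fibroblast markers, 6 in all, summed to 188.8 to 189.5 CPM in treated and 0.966 to 1.11 CPM in untreated knockout cells, and to 207 to 227 CPM in treated and 1.58 to 1.70 CPM in untreated parental cells, with Thy1 at 0 in all groups and Dcn at 0 in all but untreated knockout cells, where it had 1 count. The fibroblast sum is mostly Col1a1 and Pdgfrb. Col1a1 was called higher with TGF-β in both lines. Pdgfrb and Pdgfra were higher too, but passed the count filter only through the treated libraries, so their calls are not used. The part of all these markers in the results for the 7 genes was not tested.

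Per kilobase of annotated exon, F3 stood above Plaur, Plat and Tfpi, in that order, in every group but untreated knockout cells. In knockout cells with TGF-β the mean level was 214 CPM per kb for F3, 52.2 for Plaur, 16.7 for Plat and 0.356 for Tfpi. In untreated knockout cells Plaur averaged 37.9 ± 5.34 CPM per kb (SD, n = 2), F3 32.8 ± 6.82, Plat 8.57 and Tfpi 0.212. Within each of these libraries Plaur stood above F3, at 34.1 and 41.7 against 27.9 and 37.6 CPM per kb. Across the libraries the values of Plaur and F3 overlapped. In parental cells with TGF-β the levels were 207 CPM per kb for F3, 54.5 for Plaur, 25.5 for Plat and 4.67 for Tfpi. Untreated parental cells had 75.6 CPM per kb of F3, 57.4 of Plaur, 37.1 of Plat and 2.50 of Tfpi. F3 thus ranked above 99.2% of tested genes per kb in both treated groups, above 89.9% in untreated knockout cells and above 96.5% in untreated parental cells.

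Within a library, F3 stood far above its inhibitor Tfpi, by the widest margin in treated knockout cells. The ratio of their levels per kb was 824 and 440 in knockout cells with TGF-β, 158 and 153 in untreated knockout cells, 41.2 and 48.2 in parental cells with TGF-β and 32.9 and 27.4 in untreated parental cells. No groups overlapped in this ratio. Plat over Plaur, per kb, was 0.323 and 0.317 in knockout cells with TGF-β, 0.238 and 0.216 in untreated knockout cells, 0.478 and 0.456 in parental cells with TGF-β and 0.618 and 0.673 in untreated parental cells. These ratios are of transcripts and say nothing of protein or activity.

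The order of the 4 groups differed from gene to gene. Plat ran from untreated parental cells down through treated parental and treated knockout to untreated knockout cells, with no overlap between neighbours. Plaur had its 3 highest groups close together, with untreated and treated parental cells overlapping and treated knockout cells, at 137 and 137 CPM, just below the lower treated parental library. F3 had both treated groups on top and overlapping, then untreated parental and last untreated knockout cells. Tfpi had both parental groups above both knockout groups, the treated one higher in each line.

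Among 9035 candidate genes, the profile nearest to that of Tfpi over the 8 libraries was that of Agps itself, with a root mean square difference of 0.57 on the log2 scale after centring each gene on its own mean. S100a4, a calcium-binding protein gene, came next at 0.75. With TGF-β in parental cells Agps and Tfpi went opposite ways, with log2 fold changes of -0.37 and 0.90. In knockout cells both log2 fold changes were positive, 0.36 for Agps and 0.74 for Tfpi. The profile of Plat was nearest to those of Zfpm2, a GATA cofactor gene (0.22), and Map1lc3b, an autophagy gene that also lies on chromosome 8 (0.28). F3 was nearest to Sdcbp2, a syntenin family gene (0.22), and to Lif, a cytokine gene of the interleukin 6 family (0.24). Lif stood at 187 CPM in treated and 31.1 CPM in untreated knockout cells, and at 205 CPM in treated and 59.6 CPM in untreated parental cells. Plaur varied little and was nearest to the proteasome gene Psma5 and the vesicle gene Sec22b, at 0.09 each. For Procr, with few counts, Fst and Tpm1 were nearest at 0.36 and 0.43.

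Other genes of the plasmin and clotting systems were then read from lists grouped by role, with 44 genes of which 25 were tested. In knockout cells 8 of these rose and 9 fell with TGF-β, and in parental cells 6 rose and 8 fell, where 41.4% of all genes tested were called in knockout and 42.5% in parental cells. Their median log2 fold change was within 0.01 of 0 in knockout and 0.09 in parental cells, beside 0.00 and 0.01 over all genes tested. Between knockout and parental cells 3 were higher and 4 lower under TGF-β, and 3 were higher and 2 lower without treatment, where 17.9% of all genes were called with TGF-β and 13.7% without. The counts by list that follow are small and are to be read against the same shares. Genes counted as called above, Serpina5, F13a1 and Fgb among them, include some that passed the count filter only through groups where they were high.

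Among plasminogen and 4 of its receptors, 2 of the 4 genes tested fell with TGF-β in each line and 0 rose. Plgrkt, which encodes a membrane receptor of plasminogen, stood at 227 and 223 CPM in treated and 501 and 600.0 CPM in untreated knockout cells, and at 197 and 189 CPM in treated and 348 and 442 CPM in untreated parental cells. It fell by 1.29 on the log2 scale in knockout cells (adjusted p = 5.12e-06 in edgeR) and by 1.03 in parental cells (adjusted p = 3.48e-05). Eno1, an enolase that also binds plasminogen at the cell surface, fell by 0.48 in knockout and by 0.36 in parental cells. Plasminogen itself (Plg) had at most 2 counts in a group, and genes at or near 0 counts were singled out after their values were seen. Of the 3 tested genes in the list of inhibitors of the activators and of plasmin, 0 fell in either line. Serpina5 passed the count filter only through the treated knockout libraries, where it is high (18 and 10 counts). Its call is therefore not used. Serpini1, the neuroserpin gene, an inhibitor of tissue plasminogen activator, rose 2.30-fold in knockout and 2.23-fold in parental cells. Serpinb2, another inhibitor of urokinase, had at most 1 count in a group.

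Of 7 tested genes listed for the clearance of activators and their inhibitor complexes or as partners of the urokinase receptor, among them the receptor chaperone Lrpap1, 2 rose and 2 fell with TGF-β in each line. Lrp1, the large endocytic receptor for these complexes and for Tfpi, stood at 633 and 665 CPM in treated and 202 and 203 CPM in untreated knockout cells, and at 296 and 280.3 CPM in treated and 73.2 and 86.4 CPM in untreated parental cells. No groups overlapped, and the knockout level was above the parental one by 1.17 on the log2 scale with TGF-β (adjusted p = 1.34e-05 in edgeR) and by 1.34 without (adjusted p = 7.68e-06). Lrp2 (megalin) rose by 0.93 on the log2 scale in knockout and by 3.63 in parental cells, a difference of -2.70 (adjusted p = 0.0142 in edgeR). Its untreated levels were low, with 25 and 34 counts in knockout and 9 and 20 counts in parental libraries.

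Of the clotting factors, the liver-type genes F2, F7, F9 and F10 had at most 2 counts in a group. F7 encodes factor VII, which tissue factor binds. F13a1, which encodes the A subunit of the fibrin-crosslinking factor XIII, stood at 69.7 and 74.2 CPM in treated and 0.0483 and 0.278 CPM in untreated knockout cells, and at 19.3 and 21.7 CPM in treated and 1.05 and 0.469 CPM in untreated parental cells. F13a1 passed the count filter only through the treated libraries, where it is high, so its calls are not used. Its fitted log2 fold change with TGF-β was 8.71 in knockout cells, where the untreated libraries held 7 counts in all. In parental cells it was 4.71, and the changes differed by 3.99 on the log2 scale. Fgb, which encodes the fibrinogen beta chain, went the other way, at 0.253 and 0.388 CPM in treated and 24.9 and 20.0 CPM in untreated knockout cells, and at 0.318 and 0.715 CPM in treated and 24.8 and 27.8 CPM in untreated parental cells. Its log2 fold change was -6.11 in knockout and -5.68 in parental cells. Fgb passed the count filter only through the untreated libraries, where it is high, so its calls are not used either.

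Of the anticoagulant genes tested, Proc (protein C) fell and Pros1 (protein S, its cofactor) rose with TGF-β in both lines. Proc stood at 3.03 and 3.60 CPM in treated and 14.5 and 12.8 CPM in untreated knockout cells, and at 1.43 and 1.25 CPM in treated and 11.6 and 14.2 CPM in untreated parental cells, a log2 fold change of -2.04 in knockout and -3.25 in parental cells. Pros1 rose by 1.49 in knockout and by 1.40 in parental cells. Thbd (thrombomodulin), the partner of Procr in activating protein C, had at most 2 counts in a group, and Tfpi2 had 0 counts in all groups. Of the protease-activated receptors, F2rl1, the receptor cut by the tissue factor and factor VII complex, fell by 0.69 on the log2 scale in knockout and by 1.17 in parental cells. F2r, the thrombin receptor gene, was lower in the knockout than in the parental line with a log2 fold change of -0.42 under TGF-β (adjusted p = 0.0493 in edgeR) and -0.73 without (adjusted p = 0.00391).

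**Figure D5:**
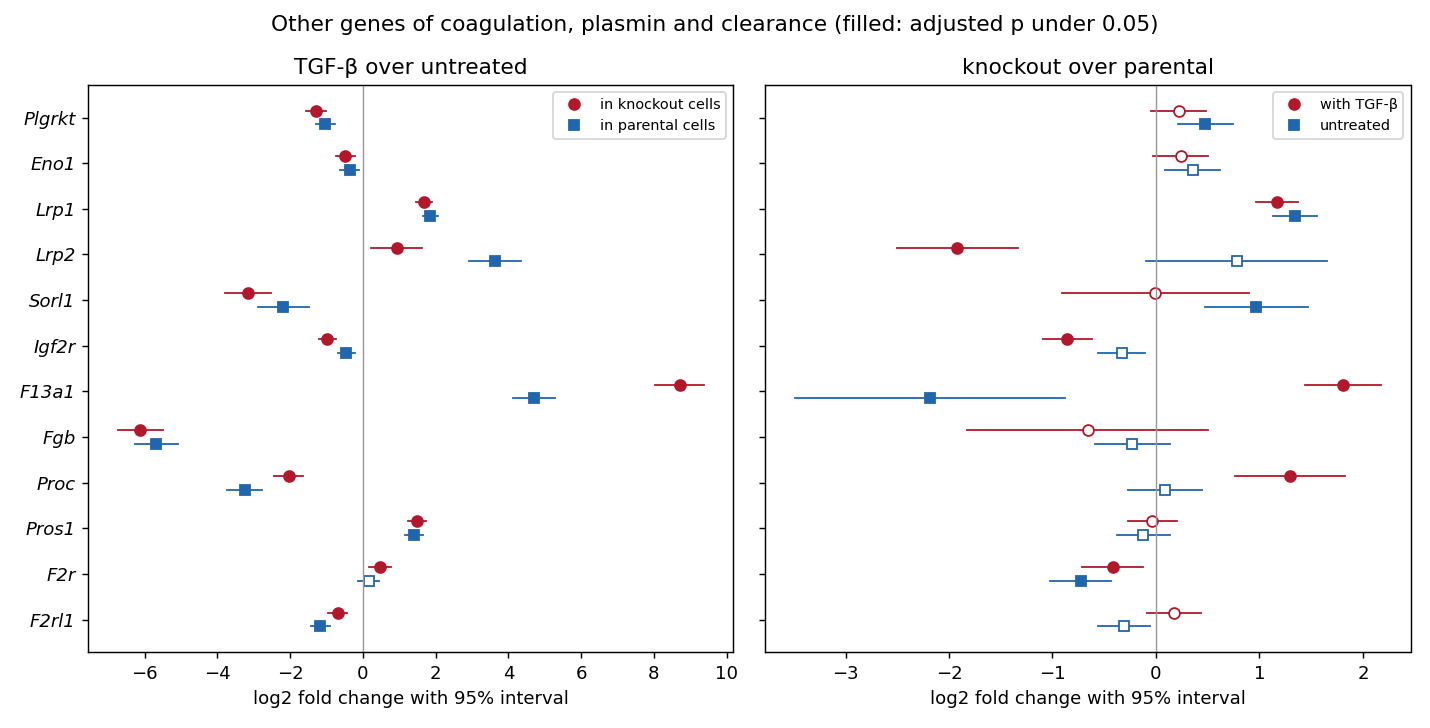
Log2 fold changes with 95% intervals (x axis) of 12 other genes of coagulation, plasmin and clearance, for TGF-β over untreated cells (left) and knockout over parental cells (right), filled where the adjusted p was under 0.05. The list of inhibitors of the activators and of plasmin, which holds Serpini1, is not drawn. F13a1 lies far right and Fgb far left for TGF-β in both lines, and Lrp1 lies right of 0 in all 4 comparisons. The calls of F13a1 and Fgb are not used.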

How the data were processed

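Polyadenylated RNA of 8 libraries in 4 groups of 2 was analysed. Per the submitters' processing notes the tools were STAR 2.7.1a, featureCounts 1.6.2 and DESeq2 1.26.0, on GRCm38 (mm10); whether counting used strand is not given in the sources used here. Raw counts per gene, as the authors deposited them, were analysed. The authors' table of normalized values (signal), deposited beside them, equalled the counts divided by 1 factor per library to within 0.00494% (genes of at least 100 counts) and was not tested.

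Genes were filtered with filterByExpr (minimum count 10), leaving 14641, scaled by TMM and fitted with edgeR 4.0.16 (R 4.3.3), 1 mean per group, 4 residual degrees of freedom. P-values were adjusted by Benjamini-Hochberg over all genes in each comparison. Standard errors come from the F statistic. DESeq2 1.42.0, other scalings and filters, a fit on the compared groups alone, the replicate number as a block and leaving out each library were alternatives. The fit was tested on simulated data.

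The 7 genes, the lists of related genes and the tests were chosen with earlier results of these data known. Beyond the 7 and Agps, genes were named where a listed gene averaged a log2 CPM of at least 1 and was called between a pair of groups, or, for likeness, as the 2 nearest genes averaging a log2 CPM of at least 3. Genes at or near 0 counts are also named, and some genes of these pathways are not reported here. Positions and exonic lengths are from GENCODE M21 (GRCm38). Of the 50-base stretches of the genes' transcripts, 0.303% in Serpine2, 0.162% in Tfpi and 0 in the others recur in other genes. RefSeq promoter windows matched 5 of the 7 genes.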

Additional observations from a re-analysis of the deposited data

Results flagged for a closer look

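The TGF-β change of Plat differed between the lines by 1.50 in log2 units, knockout minus parental, and edgeR's interaction test gave an adjusted p of 4.64e-04. It was up in both treated knockout libraries against both untreated ones, and down in both treated parental libraries against both untreated ones. It stayed past the threshold in all 15 other fits, with log2 differences from 1.41 to 1.598.

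The TGF-β change of F3 differed by 1.25 in log2 units, and edgeR's interaction test gave an adjusted p of 0.0173, with all 4 treated libraries above all 4 untreated ones. This difference passed in 12 of 15 other fits and ranged from 1.03 to 1.48.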

How the results depend on the processing

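Of the 7 genes, Procr included, the number called kept to within 1.5 times in 76 of 79 other fits. The exceptions were for the difference of TGF-β changes, where 2 genes were called and leaving out 1 library gave 1 to 3, with 1 (Plat) without either treated parental library or without replicate 1 of the treated knockout cells. The numbers called with TGF-β in parental cells and between the lines under TGF-β include Procr, whose own calls are not used here. The refits of single genes below include it too. On leaving out 1 library, the log2 fold change in parental cells was -0.63 to -0.45 for Plat, 1.31 to 1.62 for F3 and 0.79 to 1.00 for Tfpi. Between the lines under TGF-β it was -0.70 to -0.51 for Plat and -3.96 to -3.49 for Tfpi. For single genes, 337 refits kept direction and call, 17 lost a call, 4 gained one and 3 turned sign. The sign turned for F3 between the lines under TGF-β without replicate 1 of the treated knockout cells (-0.18, with 0.25 without the other). It also turned for the difference of the Tfpi changes on leaving out either replicate 2 of untreated knockout cells (0.10) or replicate 1 of treated ones (0.07), within a range of -0.41 to 0.10, and none of the 3 was called.

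Over all genes, 2000 were called between the lines untreated, 1011 without chromosomes 3, 8, 15 and X and 1112 in a fit on the compared groups alone, and 1442 to 1818 on leaving out 1 library. Under TGF-β 2618 were called, 1531 without those chromosomes and 1169 to 2910 on leaving out 1 library. For the difference of TGF-β changes 352 were called, 855 without the count filter and 110 to 401 on leaving out 1 library. For these 2 comparisons, leaving out any 1 of the 4 treated libraries moved the count by over 1.5 times, and leaving out an untreated library did not. For TGF-β the range was 4684 to 6311 in knockout cells (6064) and 4437 to 6417 in parental cells (6228). Without chromosomes 3, 8, 15 and X the share of calls that were higher between the untreated lines was 45.6%, against 34.6%. That fit leaves out the genes of those chromosomes other than Plat and F3, so their own calls drop from its counts. In the main fit, untreated, 190 genes were called lower and 6 higher on chromosome 3, and 378 and 7 on chromosome 8. On chromosome 15 they were 83 and 17, and on chromosome X 102 and 25. Other causes were not tested.

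The labels do not say what a replicate number shares. Differences between replicates 1 and 2 correlated across genes at 0.02 to 0.31 between groups. With the replicate number as a block, 679 genes were called for the difference of TGF-β changes, Plaur passed there (0.54, adjusted p = 0.0418), and Tfpi with TGF-β in knockout cells did not (0.74, adjusted p = 0.0510). The block changed no other call of Plat, Plaur, F3 and Tfpi. Depth limits Plau, Serpine2 and Procr, which had at most 13 counts in a library.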
